A study of Mus musculus with 4 samples.

Results

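Il2ra, Il2rb, Il4ra, Il21r, Jak1, Jak3, Stat5b, Socs1 and Ptpn2 encode receptors, kinases, a transcription factor and inhibitors of cytokine signalling, and their transcripts carried DDX5 peaks in cultured mouse Th17 cells. DDX5 is a DEAD-box RNA helicase, and Th17 cells are the helper T cells that make interleukin-17. The 9 genes were chosen by having at least 1 peak in the deposited list, so the presence and the height of their peaks are descriptions and were not tested. They held 22 of the 900 peaks and were 9 of the 459 genes named in the list. Over all protein-coding genes, 1.81% had a peak (396 of 21900), and nothing is read from the 9 of 9 beside it.

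The data are from enhanced crosslinking and immunoprecipitation (eCLIP), in which ultraviolet light fixes a protein to the RNA it touches and the bound fragments are sequenced. All 4 libraries came from wild type C57BL/6 female mice, whose naive CD4 T cells were polarized over 72 h of culture with IL6, TGFb and antibodies to CD3 and CD28. Of these, 2 were DDX5 immunoprecipitates (IP) made with an anti-DDX5 antibody, and 2 were inputs without antibody. The growth protocol gives an age of 8 weeks, the series' design text gives 2 mice of 8 to 10 weeks, and neither says which mouse gave which library. A peak has a single enrichment (log2 of IP over its input) and a single −log10 p, both from the authors, for the replicates together, so the values have no replicate error. Library depth is unknown, and the list holds no RNA level, so whether a gene without a peak was expressed is not known here.

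Cytokines of the common gamma chain family (IL-2, IL-4, IL-7, IL-9, IL-15 and IL-21) signal through receptors that share the gamma chain encoded by Il2rg. A signalling chain that pairs with the gamma chain binds JAK1, and the gamma chain binds JAK3. These kinases phosphorylate STAT proteins, which enter the nucleus and switch on target genes. SOCS1 and the phosphatase PTPN2 dampen the kinases and STATs. In helper T cells, IL-2 acting through STAT5 holds back the Th17 programme, whereas IL-21 acts mainly through STAT3 and favours it.

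Of the 9 genes, 4 had a peak whose midpoint lay within 1 kb of the RefSeq gene start (Il2ra, Il4ra, Jak1 and Ptpn2), and Stat5b had peaks next to the start of a shorter transcript. For Il2ra, Il4ra, Jak1 and Stat5b a sequence at or upstream of the start is shown. The peaks' own sequence was not used here. The sequences are from RefSeq on GRCm38.p6 (mm10), 5′ to 3′ on the strand of the gene, and end 30 bases after the first annotated start in the window. The Il4ra sequence therefore ends before the RefSeq gene start, and those of Jak1 and Stat5b before the RefSeq start that their window is set around. Capitals mark runs of at least 3 G.
Il2ra, chr2:11642542-11642821, plus strand: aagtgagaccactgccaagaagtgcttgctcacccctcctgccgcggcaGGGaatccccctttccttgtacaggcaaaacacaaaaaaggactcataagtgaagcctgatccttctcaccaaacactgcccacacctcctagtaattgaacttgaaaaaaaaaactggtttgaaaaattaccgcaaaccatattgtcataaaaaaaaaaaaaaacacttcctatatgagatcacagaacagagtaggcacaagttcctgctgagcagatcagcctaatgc
Il4ra, chr7:125552021-125552149, plus strand: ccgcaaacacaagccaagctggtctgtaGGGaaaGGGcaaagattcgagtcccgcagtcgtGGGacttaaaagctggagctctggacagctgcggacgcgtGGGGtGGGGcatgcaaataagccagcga
Jak1, chr4:101265253-101265473, minus strand: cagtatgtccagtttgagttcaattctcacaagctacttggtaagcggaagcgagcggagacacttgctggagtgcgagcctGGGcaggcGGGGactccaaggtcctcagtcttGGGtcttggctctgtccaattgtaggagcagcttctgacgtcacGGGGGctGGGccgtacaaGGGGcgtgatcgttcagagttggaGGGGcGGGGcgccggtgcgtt
Stat5b, chr11:100850695-100850831, minus strand: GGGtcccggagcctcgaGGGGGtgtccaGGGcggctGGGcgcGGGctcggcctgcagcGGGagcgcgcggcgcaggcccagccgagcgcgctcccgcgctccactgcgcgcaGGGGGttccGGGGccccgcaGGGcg

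The sequences differed in base composition. Over the whole RefSeq window of 300 bases, GC content was 82.7% at Stat5b, 64.7% at Jak1, 62.0% at Il4ra and 42.7% at Il2ra, against a median of 52.7% over 32851 windows. For the 21263 windows of protein-coding genes the median was 56.3%. Stat5b has another RefSeq window, further along the gene and far from its peaks, with 47.3% GC and 3 G runs, so its values depend on the start used. The strand of the gene had 20 runs of at least 3 G in the upstream window of Stat5b, 13 at Il4ra, 9 at Jak1 and 1 at Il2ra, where the median window had 5. Runs of at least 3 C, which are G runs on the other strand, numbered 7, 2, 1 and 3 in the same order. Windows with at least 1 GGG made up 96.5% of all, so its presence does not set these genes apart. RefSeq windows were found for 7 of the 9 genes, in 8 windows, and not for Il2rb and Ptpn2. The STAT motif TTCNNNGAA, which reads the same on both strands, was in 8.30% of all windows and in 0 of these 8. It was in 7.69% of the windows of protein-coding genes. At such shares few windows hold the motif, so nothing is read from the 0.

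The 22 peaks were mostly intronic and of moderate height. Their median log2 enrichment was 4.69 (25.8-fold), against 5.31 (39.7-fold) over all 900 peaks, and 5 of the 22 lay above the median of the list. Values ran from 3.37 to 5.67, with an SD of 0.67 over peaks. The median −log10 p was 8.68, against 12.3 over all peaks, and none of the 22 reached the ceiling of 400, where 72 peaks of the list stand. Of those 72, 48 were in noncoding exons. Introns held 17 of the 22 (77.3%, exact Clopper-Pearson 95% interval 54.6 to 92.2, counting error only), against 59.1% of all peaks. The 900 peaks include 111 in noncoding exons (12.3%), a class with 0 of the 22, so these shares are over unlike sets. Peaks of 1 gene share their source, and Il2ra alone gave 31.8% of the 22. Without Il2ra the median was 4.92 and the intronic share 66.7%.

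**Figure D1:**
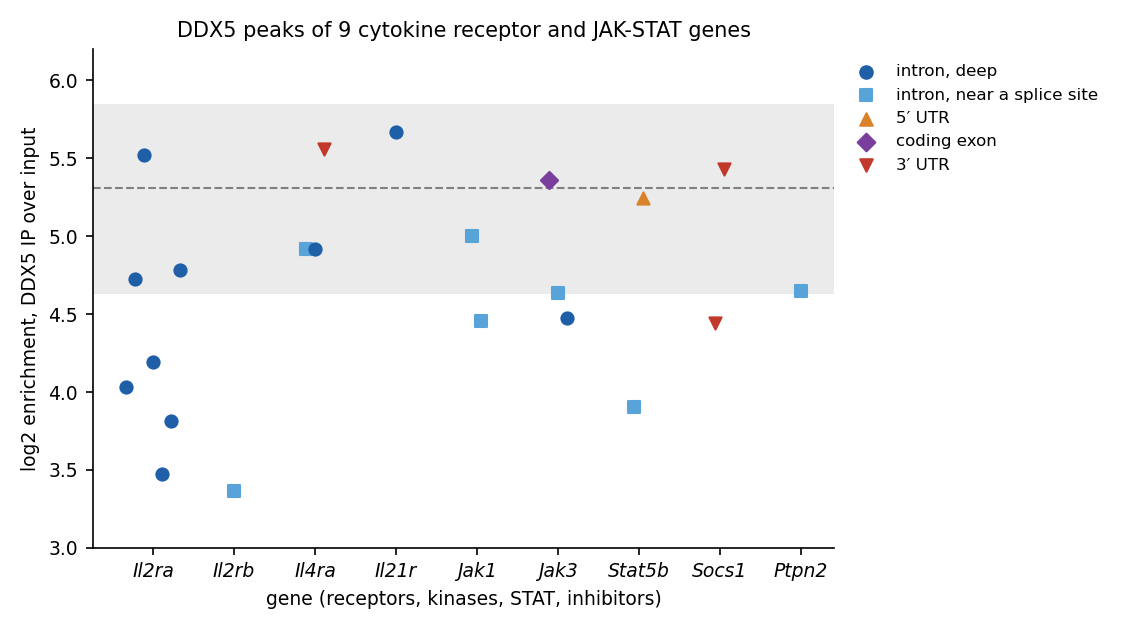
Log2 enrichment of DDX5 IP over input (vertical axis) for each of the 22 peaks, by gene, placed within a gene by genome position. Colour and shape give the authors' region class. The dashed line is the median over all 900 peaks (5.31) and the grey band their quartiles (4.64 to 5.84), and 5 points lie above the line.

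Peaks joined where they touched formed 18 sites. Of 6 neighbouring pairs at most 14 nt apart, 4 touched, and neither side was always higher. The 5′ piece had the higher enrichment in 3 pairs (Socs1, Stat5b and 1 of Il2ra) and the 3′ piece in the other 3 (Jak1 and 2 of Il2ra). Median peak width was 74.5 nt (40 to 178), and 65 nt over the whole list.

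Among the receptors, Il2ra had by far the most peaks. It encodes CD25, the alpha chain that gives the IL-2 receptor its high affinity, and lies on the plus strand of chromosome 2 (gene ENSMUSG00000026770.5, 11642792 to 11693194). All 7 of its peaks lay in an intron of 31230 nt that begins 258 nt after the transcript start. They formed 5 sites, or 4 when peaks up to 50 nt apart were joined, and spread over 17111 nt.

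The first Il2ra site began 832 nt after the gene start, at 11643624 to 11643736, with values of 4.03 and 4.72. An isolated peak about 10 kb further on, at 11653750 to 11653828, was the highest of the gene at 5.52 (45.9-fold). The remaining sites lay close together in the middle of the intron, at least 13560 nt from either splice site. Of these, the peaks at 11659146 to 11659457 had values of 4.19 and 3.47, and those between 11660579 and 11660734 had 3.82 and 4.78. The highest peak of Il2ra was therefore neither at the start of the gene nor in the densest part of the cluster. The median of the 7 peaks was 4.19, below that of the list, with an SD of 0.69.

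**Figure D2:**
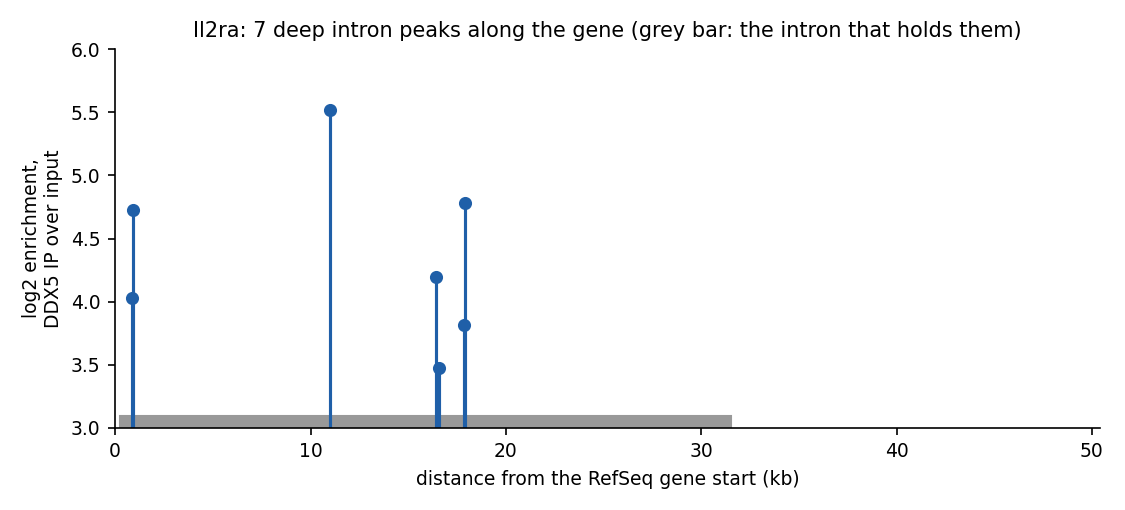
Log2 enrichment of the 7 Il2ra peaks (vertical axis, starting at 3, the minimum of the deposited list) against the distance of the peak midpoint from the RefSeq gene start in kb. The grey bar marks the intron of 31230 nt that holds them all, and the tallest stem, 5.52, stands alone near 11 kb.

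Of genes with 7 peaks in the list, Arid1a, Sema4d and Rbpj were set beside Il2ra. In Arid1a, which encodes a chromatin remodelling subunit, the median was 5.28, and 42.9% of peaks were deep intronic. Sema4d, a semaphorin of lymphocytes, had a median of 5.62 and a deep share of 57.1%, and Rbpj, the DNA-binding factor of Notch signalling, had 6.00 and 42.9%. Il2ra had the lowest median of the 4, and of these 4 genes it alone had every peak deep in an intron. In all, 18 of 459 genes had 7 or more peaks.

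Il2rb encodes the beta chain shared by the IL-2 and IL-15 receptors, which carries signal into the cell. Its single peak, at 78486767 to 78486902 on the minus strand of chromosome 15 (ENSMUSG00000068227.8), was 136 nt wide and lay in an intron of 1602 nt, 244 nt before the 3′ splice site. With 3.37 (10.3-fold) it was the lowest of the 22 peaks, just inside the deposited minimum of 3, and its gene ranked 447 of 459 by highest peak. The next lowest was the Il2ra peak at 3.47. Of all 900 peaks, 53 were under 3.5.

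Il4ra encodes the alpha chain of the IL-4 receptor, which pairs with the gamma chain. It lies on the plus strand of chromosome 7 (ENSMUSG00000030748.9, 125552271 to 125579474), and its 3 peaks were in different parts of the transcript. One at 125552346 to 125552485 began 75 nt after the gene start and 17 nt into an intron of 12223 nt, with a value of 4.92. Another, deep in the same intron at 125554754 to 125554805, had the same value of 4.92. The highest, 5.56 (47.1-fold), lay in the 3′ UTR at 125577199 to 125577272, where it began 147 nt into a UTR of 2423 nt.

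Equal values such as those of Il4ra were common in the list. An enrichment identical to that of another peak was found for 364 of 900 peaks and for 10 of the 22. The peaks of Il21r, Stat5b (5′ UTR) and Il4ra (3′ UTR) each shared theirs with 3 other peaks.

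Il21r encodes the receptor chain for IL-21, a cytokine that Th17 cells make and respond to. The gene (ENSMUSG00000030745.9) follows Il4ra on the same strand after 23777 nt. Its single peak, at 125624759 to 125624822, was the highest of the 22 at 5.67 (50.9-fold), and exceeded 65.0% of all peaks. It lay in an intron of 2334 nt, 1828 nt after the 5′ splice site and 442 nt before the 3′ splice site, more than 21 kb from the gene start.

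Both kinases of the pathway carried peaks, in different places. Jak1 encodes the kinase bound by the signalling chains that pair with the gamma chain. It had 2 touching peaks at the start of an intron of 71178 nt, on the minus strand of chromosome 4 (ENSMUSG00000028530.14). The upstream piece, 101264982 to 101265033, began 8 nt after the 5′ splice site and was enriched 21.9-fold. The downstream piece, 101264900 to 101264981, was enriched 32.1-fold. The site therefore began next to an exon boundary, 249 nt from the gene start, although the gene spans 113309 nt.

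Jak3 encodes the kinase bound by the gamma chain. It lies on the plus strand of chromosome 8 (ENSMUSG00000031805.17, 71676383 to 71690577) and had 3 peaks. The first, classed as coding exon, lay at 71679747 to 71679882 and reached 5.36 (41.0-fold), with a −log10 p of 33.3, the highest of the 22. It crossed a 5′ splice site, with 98 nt in the exon and 38 nt in the intron, and lay wholly inside an exon of 2 transcripts annotated as retained intron.

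The other Jak3 peaks lay beyond the 3′ end of 2 of the 3 protein-coding Jak3 transcripts that overlap a peak. The peak at 71688622 to 71688674, with 4.63, began 64 nt past the end of one and 66 nt past the end of the other. The peak at 71689452 to 71689498, with 4.48, began 894 and 896 nt past them, and the list names it for both Insl3 and Jak3. Both positions are intronic in longer Jak3 transcripts that reach into Insl3, a hormone gene on the same strand, and the midpoint of the last peak was also 261 nt into the Insl3 transcript. Whether these fragments came from Jak3 or Insl3 RNA was not tested.

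**Figure D3:**
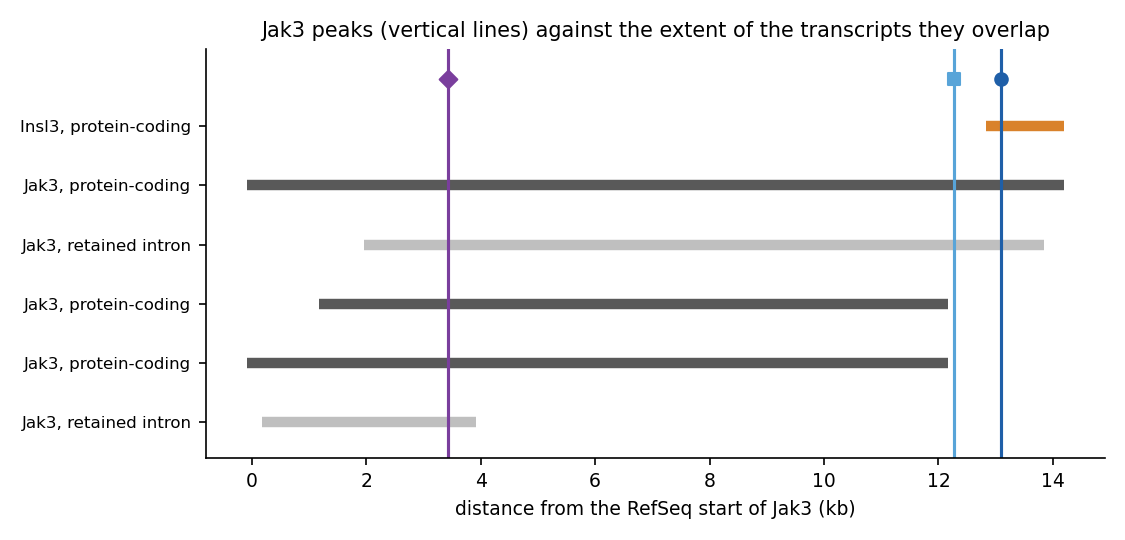
Extent of the annotated Jak3 transcripts (dark, protein-coding; light, retained intron) and of Insl3 (orange) that overlap a Jak3 peak, by distance from the RefSeq start of Jak3 in kb. Vertical lines are peak midpoints (diamond, coding exon; square, intron near a splice site; circle, deep intron), and 2 of the 3 lie past the end of 2 protein-coding transcripts.

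Stat5b encodes a STAT activated by IL-2 and IL-7, and had 2 peaks 14 nt apart on the minus strand of chromosome 11 (ENSMUSG00000020919.11). The upstream peak, 100850340 to 100850410, was classed as 5′ UTR with a value of 5.25 (37.9-fold). It crossed a 5′ splice site, with 12 nt in the exon and 59 nt in the intron. The downstream peak, 100850251 to 100850325, lay in the same intron 73 nt after the splice site and had 3.90. Both were within 250 nt of the start of an annotated transcript by midpoint, and over 8 kb from the RefSeq gene start.

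The crossing peaks of Jak3 and Stat5b were 2 of the 22 (9.09%), whereas 26 of 900 peaks in the list crossed a 5′ splice site (2.89%). A 3′ splice site was crossed by 0 of the 22 and by 11 of 900. These counts are small, and the crossing was noticed after the values were seen.

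The inhibitors carried peaks at opposite ends of their transcripts. Socs1 encodes a SOCS protein that blocks JAK kinases and is itself switched on by STATs. Its 2 touching peaks lay in the 3′ UTR, on the minus strand of chromosome 16 (ENSMUSG00000038037.4). The upstream piece, 10784105 to 10784158, began 77 nt into a UTR of 428 nt and had 5.43 (43.1-fold). The downstream piece, 10784013 to 10784104, had 4.44. Ptpn2 encodes a phosphatase that removes phosphate from JAK1, JAK3 and STATs. Its single peak (ENSMUSG00000024539.17, chromosome 18, minus strand, 67724016 to 67724173) lay in an intron, 268 nt after the 5′ splice site, with 4.65 (25.1-fold).

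Socs1 and Il4ra held 3 of the 11 3′ UTR peaks in the list (27.3%). The 3′ UTR share was 13.6% among the 22 peaks (exact 95% interval 2.91 to 34.9) and 1.22% among all 900. The interval counts the 2 touching Socs1 peaks, which form 1 site, as separate, so it is too narrow. The difference was not tested. Socs1 was the only one of the 9 genes with no intronic peak, and at 1729 nt it was also the shortest. No peak of the 9 genes was in a noncoding exon, a class that held 12.3% of the list. Nothing is read from this, because the 9 genes encode proteins.

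Deep intron peaks of these genes were lower than others of that class in the list. The 10 peaks had a median of 4.60, against 5.62 for 261 deep intron peaks of other genes, and 7 of the 10 were from Il2ra. The other 3 had 5.67 (Il21r), 4.92 (Il4ra) and 4.48 (Jak3). The 7 peaks near a splice site, from 6 genes, had a median of 4.63, against 5.30 for 235 others. The peaks near a splice site included none of Il2ra. Neither difference was tested. The classes are the authors' and do not follow the distances given here throughout. The deep Il21r peak lay 442 nt from a splice site, and a Jak3 peak classed as near lay 459 nt away.

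**Figure D4:**
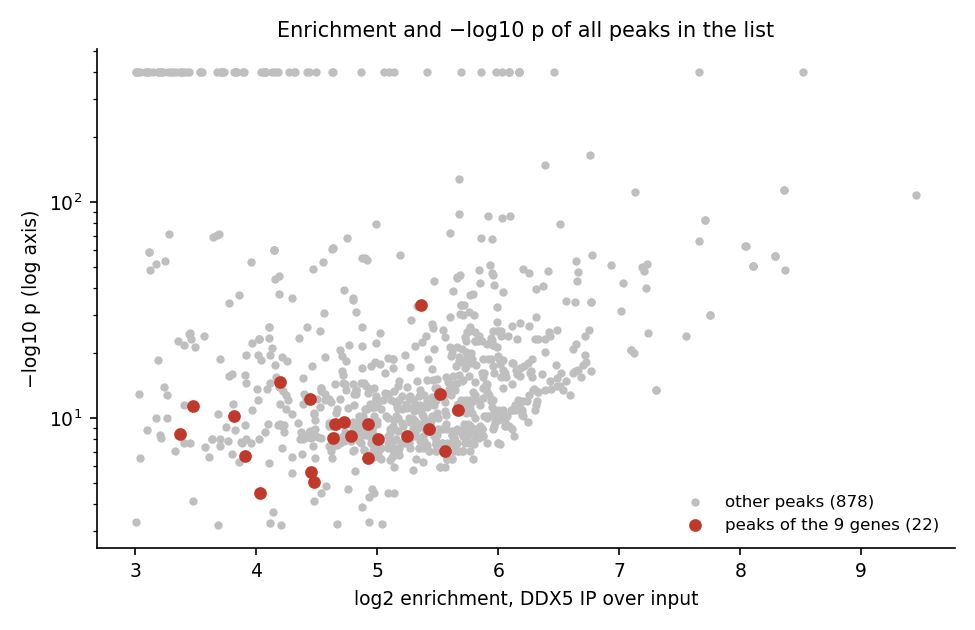
Log2 enrichment (horizontal) and −log10 p (vertical, log axis) of all 900 peaks, with the 22 peaks of the 9 genes in red. Red points lie between 3.37 and 5.67 in enrichment and between 4.51 and 33.3 in −log10 p, and none is on the row of points at the ceiling of 400.

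A smaller share of these peaks than of all peaks of protein-coding genes lay near gene starts, a difference that was not tested. Within 1 kb of the RefSeq gene start lay 6 of 22 midpoints (27.3%, exact 95% interval 10.7 to 50.2), against 315 of 763 peaks of protein-coding genes (41.3%). The interval counts the touching peaks of Il2ra and of Jak1 as separate, so it is too narrow. With 1 value per site the share of these genes was 22.2%. Measured from the nearest annotated transcript start, a choice made after the data were seen, the counts were 8 of 22 (36.4%) and 505 of 763 (66.2%). The 8 peaks belonged to Il2ra, Il4ra, Jak1, Stat5b and Ptpn2. Median distances from the transcript start were 1986 nt and 396 nt. For the 22 peaks, distances were taken only from starts of the gene described here. The last Jak3 peak, which the list also names for Insl3, was thus counted at 13092 nt from the RefSeq gene start. Its midpoint lay 261 nt into the Insl3 transcript, within 1 kb of that start. The comparison with the 763 peaks therefore depends on the gene used for such peaks.

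**Figure D5:**
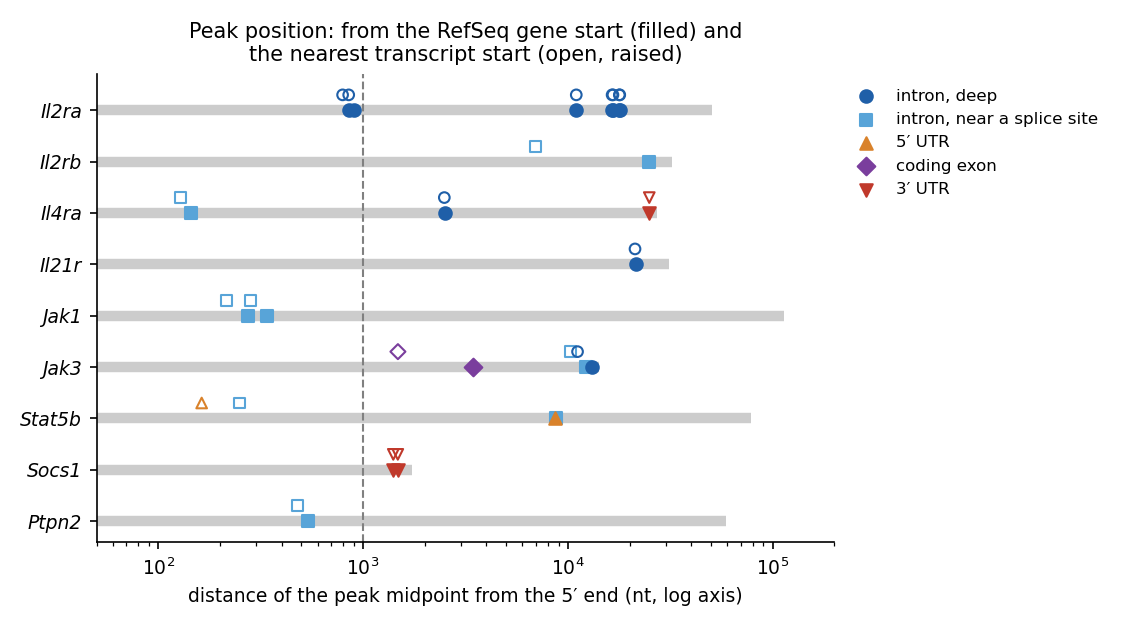
Distance of each peak midpoint from the RefSeq gene start (filled) and from the nearest annotated transcript start (open, drawn higher), in nt on a log axis, for the 9 genes. Grey bars give the length of the RefSeq gene and the dashed line marks 1 kb, to the left of which lie 6 filled and 8 open points.

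Of 72 pathway genes listed by role, 12 had a peak, namely the 9 described here and 3 of the 63 others, where 1.81% of all protein-coding genes had one. At that share most short lists hold no gene with a peak, so nothing is read from a list without one. Receptors of the gamma chain family had peaks in 4 of 8, and Il2rg, Il7r, Il9r and Il15ra had none. The 6 ligand genes and the 16 other cytokine receptors, among them Il6ra, Il6st, Il23r and Tgfbr1, had 0. Of the kinases, Jak2 and Tyk2 had none, and of 7 STAT genes only Stat5b had one. The SOCS list had 1 of 8 and the phosphatases 1 of 5. In these lists each gene with a peak was among the 9 chosen for having one, so the counts follow from that choice. A gene outside the list may still be bound, below the thresholds or the depth of these libraries.

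The other 3 genes with a peak were an inhibitor and 2 targets. Pias2, a SUMO ligase of the family that inhibits STATs, had 1 peak of 5.17 near a splice site, at 77065473 to 77065538 on chromosome 18. Myc, a growth regulator induced by IL-2, had 1 in its 5′ UTR with 4.74, at 61986978 to 61987049 on chromosome 15. Mcl1, a survival factor, had 1 in a coding exon with 4.09, at 95658947 to 95659043 on chromosome 3. Each had a −log10 p above 11. Among marker genes, T cell (6), Th17 (5), B cell (4), myeloid (4) and cytotoxic or NK (5) lists had 0 with a peak, and at 1.81% over all genes nothing is read from these counts. The Treg list had 2 of 4, of which Il2ra was chosen for its peak and Ctla4 (4.92) was 1 of the 3 others. A list of bound RNA does not measure expression, so it neither bears out nor contradicts the labelled cell type.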

How the data were processed

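Per the submitters' processing notes, cutadapt 1.9.1, STAR 2.4.0i, SAMtools 1.4.1 and mm10 were used. Per the deposited settings, each IP was set against its own input, and the thresholds were 3 for both the log2 fold and −log10 p. The deposited list keeps peaks reproducible between replicates (IDR). The sources used here do not give the peak caller, the IDR threshold or the annotation release. Per the file headers, a peak's values are a log2 fold and a −log10 p, both computed by the authors. No table gave counts or values for a single library, so depth is unknown and no test was run.

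A peak belonged to a gene if the comma-separated name column held its symbol, and 9 of 9 gene identifiers matched their symbols. No header says how positions are counted. Starts were taken to count from 0, because neighbouring peaks share a coordinate as end and start, and 1 was added for printing. Were this wrong, each start and width would be off by 1 nt. Near and deep introns are the deposited classes. Splice site and UTR distances come from the coordinates in the list, and gene starts from RefSeq GRCm38.p6, to which 423 of 459 symbols matched. Peaks overlapping or touching on 1 strand formed a site. Functions for sites and distances were checked on made-up peaks. Python 3.11.15 and pandas 2.3.3 were used.

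The members and lists were chosen with earlier results of these data known. The text names all 9 members, any other pathway gene with a peak, and peaks just inside the enrichment threshold. It also names 3 genes with as many peaks as Il2ra, none of which had as large a share of deep intron peaks.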

Additional observations from a re-analysis of the deposited data

How the results depend on the processing

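A −log10 p of at least 10 left 7 of the 22 peaks, in 4 of the 9 genes, and 7 of the 12 pathway genes with a peak. Il2rb, Il4ra, Jak1, Ptpn2 and Stat5b lost every peak, while 64.1% of all peaks passed. The cause was not tested. At a log2 fold of at least 4, 18 peaks in 8 genes were left, without Il2rb. The median enrichment ran from 4.44 to 4.92 over its alternatives, the intronic share from 66.7% to 86.4%, and the share within 1 kb of the start, or within 500 nt or 2 kb, from 13.6% to 36.4%. Joining peaks up to 50 or 200 nt apart gave 16 sites.

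No paired analysis was possible because the list gives 1 value per peak for both replicates, so alternatives without replicate 1 or replicate 2 were not run. Unknown depth limits every statement on genes without a peak.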
